A study of Mus musculus with 14 samples.

Results

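Unnamed transcribed loci are entries of the deposited expression table that carry a genome position and a level but a dash in place of a gene name. An unnamed entry was kept when its level was 1 FPKM or more in 2 or more of the 14 libraries, FPKM being sequenced fragments scaled by transcript length and library size. Of the 39721 entries of the table, 1859 were unnamed, and 963 of these (51.8%) passed, whereas 11977 of the 37862 named entries (31.6%) did. The members were thus chosen by the FPKM levels of these same libraries, so every count below describes the 963 loci and does not test them, and a locus that passed only through the group where it is high had to differ from the other groups. Close to the limit, 293 loci reached 1 FPKM in exactly 2 libraries (median of their second-highest level 1.27 FPKM) and 453 left-out entries reached it in 1 library (0.709 FPKM), while another 443 never reached it.

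The 14 libraries came from bone marrow-derived macrophages of male C57Bl6/J mice aged 6 to 12 weeks, primary cells grown from marrow. All cells had a first stimulus for 24 h, either Poly I:C at 100 ng/mL or PBS, and then a second one, either LPS or PBS, for 2 h or 6 h; the labels give no LPS dose. At each time 2 libraries had Poly I:C then LPS, 2 had Poly I:C then PBS, 2 had PBS then LPS, and 1 had PBS then PBS, so the 8 groups hold 1 or 2 libraries each. The labels do not say whether the 2 libraries of a group are separate mice or cultures, and every p below therefore measures only the spread between these libraries, which may be technical. With 1 PBS then PBS library at a time, any comparison with it borrows its error from the other groups.

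Macrophages sense Poly I:C, a mimic of viral double-stranded RNA, through TLR3 and cytosolic sensors, and LPS, from the outer membrane of Gram-negative bacteria, through TLR4. Both switch on NF-kB, and Poly I:C and LPS also lead to type I interferon, which acts back on the cells through STAT factors. Besides messenger RNAs, activated macrophages transcribe many long noncoding RNAs, precursors of microRNAs, and RNA from enhancers and from the stretch downstream of strongly induced genes. Such transcripts often lack a gene name in an annotation.

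Some of the loci span known microRNA hairpins. Of the 963, 13 loci spanned 10 annotated hairpins, at 9 positions. The mature sequences of the hairpins of miR-155, miR-221 and miR-222, which macrophages are known to use, follow from RefSeq (GRCm38.p6), with the seed, bases 2 to 8, in capitals. They are shown because loci that span these hairpins are described further on; a span that covers a hairpin does not show that its RNA gives rise to the microRNA, and the mature microRNAs themselves were not measured here.
mmu-miR-155-5p: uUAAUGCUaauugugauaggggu
mmu-miR-155-3p: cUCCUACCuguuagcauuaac
mmu-miR-221-3p: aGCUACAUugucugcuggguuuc
mmu-miR-222-3p: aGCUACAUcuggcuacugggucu
The -3p arms of miR-221 and miR-222 share the seed GCUACAU.

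For 75 RefSeq promoters (250 bases before to 50 bases after a start) whose start lay within 200 bp of the edge of a locus, both strands were searched for the core of the interferon-stimulated response element (GAAA, any 2 bases, GAAA) and for a kB site (GGGA, any 2 bases, TTCC). Each motif was found in 3 of the 75 (4%), against 3.44% of all 32851 promoters for the first motif and 1.47% for the second. Among positions with at most 2 entries, the 3 loci with the highest group means are shown because their levels are described further on; Hmcn1 and Fcrl5, with 9 and 3 entries, are thus left out. The promoters are given on the strand of the gene, from RefSeq (GRCm38.p6). The single match, to the kB pattern in the Ms4a4a promoter, is in capitals.
Ms4a4a, chr19:11375238-11375537, plus strand: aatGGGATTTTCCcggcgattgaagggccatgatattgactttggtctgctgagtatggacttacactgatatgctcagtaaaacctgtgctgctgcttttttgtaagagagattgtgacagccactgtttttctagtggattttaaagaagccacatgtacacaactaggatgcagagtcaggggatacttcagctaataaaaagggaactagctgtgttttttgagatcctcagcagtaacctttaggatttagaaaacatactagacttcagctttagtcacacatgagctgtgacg
Gm20559, chr6:3346089-3346388, minus strand: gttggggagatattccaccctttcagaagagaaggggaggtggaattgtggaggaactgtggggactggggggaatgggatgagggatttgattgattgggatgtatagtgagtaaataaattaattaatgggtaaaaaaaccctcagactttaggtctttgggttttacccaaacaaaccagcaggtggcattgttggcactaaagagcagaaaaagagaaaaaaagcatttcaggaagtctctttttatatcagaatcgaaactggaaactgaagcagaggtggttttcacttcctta
Gm9895, chr19:29067051-29067350, plus strand: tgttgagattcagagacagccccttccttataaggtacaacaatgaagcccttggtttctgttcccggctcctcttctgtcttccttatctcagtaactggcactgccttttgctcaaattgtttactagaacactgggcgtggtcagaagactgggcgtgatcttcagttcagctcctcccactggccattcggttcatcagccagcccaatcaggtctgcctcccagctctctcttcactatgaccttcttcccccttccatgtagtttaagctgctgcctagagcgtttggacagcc
A match is a run of letters and does not show that a factor binds there.

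Many more of the loci were detected after Poly I:C than after PBS, and most of all 2 h after LPS in Poly I:C-treated cells. At 2 h, 730 and 735 loci reached 1 FPKM with Poly I:C then LPS, 473 and 463 after Poly I:C then PBS, 197 and 166 after PBS then LPS, and 145 after PBS then PBS. At 6 h the numbers were 486 and 434 after Poly I:C then LPS, 308 and 289 after Poly I:C then PBS, 218 and 234 after PBS then LPS, and 148 after PBS then PBS. All 8 libraries that began with Poly I:C therefore held more of the loci than all 6 that began with PBS. Named entries at 1 FPKM numbered between 10094 and 10499 in every library. At 2 h they too were more numerous in libraries that began with Poly I:C (10398 to 10499) than in those that began with PBS (10209 to 10336). At 6 h their numbers overlapped between the first stimuli, at 10149 to 10258 after Poly I:C and 10094 to 10221 after PBS.

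**Figure D1:**
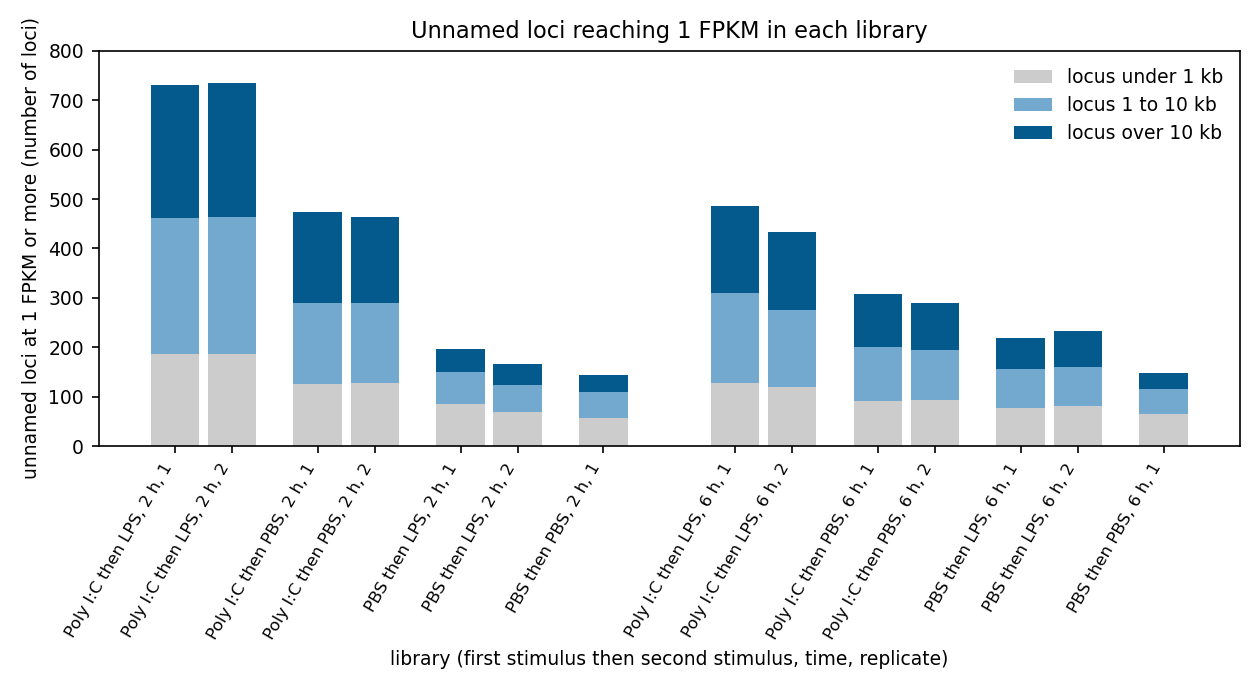
Number of the 963 unnamed loci at 1 FPKM or more in each of the 14 libraries (vertical axis), stacked by locus length; the libraries are ordered by group within each time. The bars are highest at 2 h after both stimuli (730 and 735) and lowest in the PBS then PBS libraries (145 and 148).

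A total of 575 loci (59.7%) reached 1 FPKM only in libraries that began with Poly I:C, 29 only in libraries that began with PBS, and 359 in both. Among the named entries, 632 (5.28%) reached it only after Poly I:C. The Poly I:C then LPS pair at 2 h was the only group in which 152 loci reached 1 FPKM, and this group had the highest mean for 549 loci (57.0%), against 20.1% of named entries. The next most frequent peak was Poly I:C then PBS at 2 h, with 124 loci, and 94 loci peaked after Poly I:C then LPS at 6 h. Levels were low for most loci. The median level per library lay between 1.84 and 1.86 FPKM after Poly I:C then LPS at 2 h and was 0.0793 FPKM after PBS then PBS at 2 h. At 1 FPKM or more in all 14 libraries were 49 loci (5.09%) and 8337 named entries (69.6%).

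The cells carried macrophage markers throughout. Summed over 8 of 9 listed macrophage genes with an entry of their own, the level was 5106 to 8489 FPKM in libraries that began with Poly I:C and 13756 to 20553 FPKM in those that began with PBS. Of the lists for other cell types, the endothelial genes summed to 12.8 to 48.3 FPKM after Poly I:C and 1.31 to 10.1 FPKM after PBS. The dendritic cell genes summed to 3.90 to 21.9 FPKM and 0.110 to 4.06 FPKM, and the stromal genes to 20.9 to 102 FPKM and 13.6 to 55.9 FPKM. T cell genes stayed between 1.95 and 7.31 FPKM with Cd3e, Cd3g and Cd8a at 0 in every library. Neutrophil genes reached at most 8.33 FPKM with S100a9 and Elane at 0, and NK cell, mast cell and erythroid genes at most 0.301 FPKM. The macrophage, dendritic cell and endothelial sums move with the first stimulus, and their part in the results was not tested. In bulk libraries, fewer cells of a type and less RNA per cell cannot be told apart. The level that 1 fragment is worth was estimated from the most common ratio of low levels between a library and PBS then PBS at 2 h. It differed 3.07-fold between libraries, and was highest in the second 2 h library with both stimuli (log2 1.14 relative to PBS then PBS at 2 h). In the first one it was 0.23, and in the PBS then LPS pair of 2 h it was 0.17 and 0.20. The part of depth in the results was not tested.

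By length, 269 loci were under 1 kb, 367 were 1 to 10 kb and 327 were over 10 kb, with a median of 2922 bp against 32515 bp for named entries. Of the loci over 10 kb, 269 and 271 reached 1 FPKM after Poly I:C then LPS at 2 h, against 46 and 42 after PBS then LPS. Of those under 1 kb, 186 and 187 did so after Poly I:C then LPS, against 85 and 70 after PBS then LPS. The median level of long loci was 2.14 and 2.16 FPKM after Poly I:C then LPS, against 0.102 and 0.113 FPKM after PBS then LPS at 2 h, while that of short loci was 1.74 and 1.52 FPKM against 0.246 and 0.267 FPKM.

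Positions were compared with GENCODE M21 (GRCm38), whose genes the named entries matched in place. A locus is known only by its span, so an overlap does not show that its RNA is that of the gene. By span, 511 loci lay between genes, 195 touched an exon of a protein-coding gene, 171 an exon of a long noncoding RNA gene, 49 an exon of another gene only and 37 an intron only. Intergenic loci made up 198 of the 269 short loci, 240 of the 367 middle ones and 73 of the 327 long ones. RefSeq models overlapped 538 loci, among them 326 with a long noncoding RNA, and 348 loci overlapped neither annotation. At the 859 distinct positions, 672 loci stood alone over no named entry, 291 shared their position with another entry, and 165 lay over a named entry. Of the loci outside named entries, the median distance to the nearest tested named entry was 12113.5 bp, and 107 loci lay more than 100 kb away.

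Loci were found on all 19 autosomes and on both sex chromosomes. Chromosome 13 carried 64 loci (6.65%) against 3.69% of named entries, chromosome 16 carried 49 (5.09% against 3.21%) and chromosome 10 carried 65 (6.75% against 4.81%). Entries stacked at 1 position are counted separately in these shares. The distinct positions numbered 55 on chromosome 13, 36 on chromosome 16 and 60 on chromosome 10, so the excess on chromosome 16 rests in part on stacked entries. At the other end, chromosome X carried 9 (0.935% against 3.02%), chromosome 4 carried 36 (3.74% against 6.53%), and chromosomes 2 and 11 carried 55 each (5.71% against 8.42% and 8.39%). The share of loci called higher after Poly I:C then LPS against PBS then LPS at 2 h, in the test given further on, ran from 55.3% on chromosome 9 to 80% on chromosome 14 among the autosomes. These shares rest on 21 of 38 and 32 of 40 loci. Of named entries, 28.5% on chromosome 9 and 33.1% on chromosome 14 were called higher. Differences between chromosomes were not tested.

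**Figure D2:**
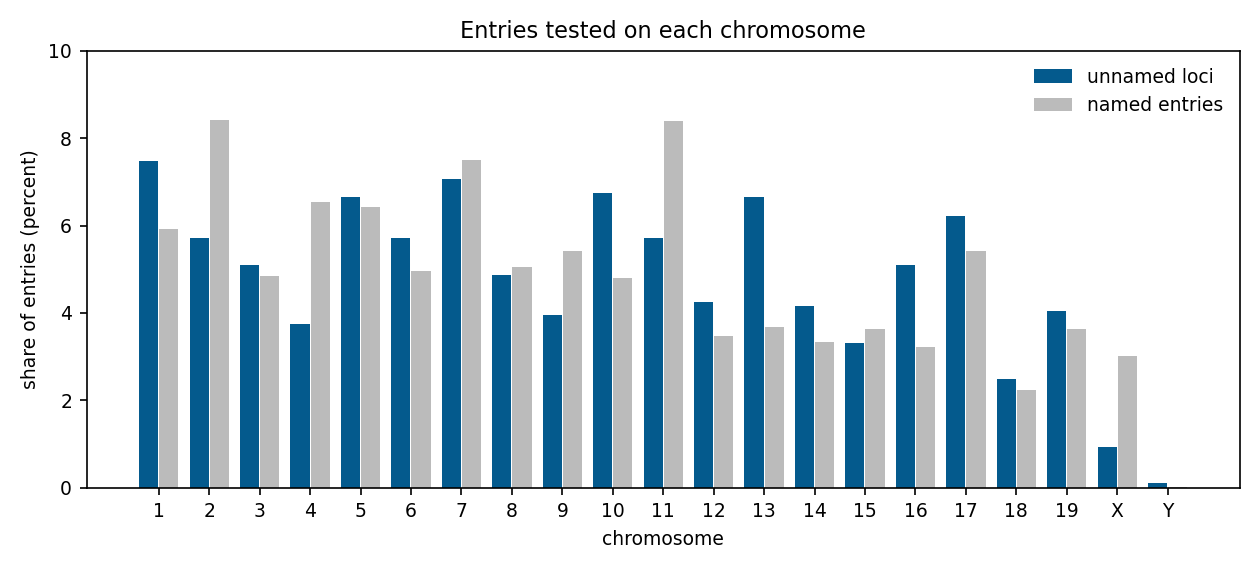
Share of the 963 unnamed loci (blue) and of the 11977 named entries tested (grey) on each chromosome, in percent. Chromosomes 13, 16 and 10 hold a larger share of the loci than of named entries, and chromosomes X, 4, 2 and 11 a smaller one. Entries stacked at 1 position are counted separately, and the 49 loci of chromosome 16 lie at 36 positions.

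Along the chromosomes, 65 groups of 3 or more loci with gaps of at most 50 kb held 250 loci (26%). Of these groups, 36 had 3 or more distinct positions (142 loci), 17 had 2 positions, and 12 were entries stacked at 1 position. Between neighbouring positions the median gap was 990 kb, and 197 of 838 gaps were 50 kb or less. The largest group had 8 loci at 2 adjoining positions on chromosome 16, chr16:25007865-25036610 and chr16:25036668-25075239, of which the second lies over the named long noncoding RNA gene A230028O05Rik.

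The loci were next compared between groups with limma on log2(FPKM + 1), over all 12940 entries that passed the level rule, named and unnamed, at a Benjamini-Hochberg adjusted p under 0.05. Log2 changes are differences on that scale and understate the change of low loci. Loci described one by one are, for each comparison, those with the largest changes among called loci of at least 5 FPKM in the higher group, so their size is a result of the choice.

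How an earlier Poly I:C stimulus alters transcript levels reached after LPS is addressed by Poly I:C then LPS against PBS then LPS. At 2 h, 659 of the 963 loci were higher after Poly I:C and 32 were lower, while 35.2% of all entries tested were higher and 26.6% lower. The median change was 1.15 over the loci and 0.12 over all entries. Long loci were called higher in 271 of 327 cases, middle ones in 257 of 367 and short ones in 131 of 269. Of the long loci, 72 stood alone at their position, against 335 of the middle and 265 of the short ones, and 160 lay over a named entry. Entries that share a position may share reads, so counts of long loci here and below are not all of separate observations. For 201 of the 659, both PBS then LPS libraries were listed at 0. Of the 670 loci that reach 1 FPKM in 2 or more libraries outside this comparison, and so did not need it to pass, 405 (60.4%) were higher and 24 lower, against 32.3% and 28.7% of the named entries that pass in the same way. Most of those outside libraries also began with Poly I:C. A locus could thus still pass by being high after Poly I:C, so this restriction does not remove that selection.

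**Figure D3:**
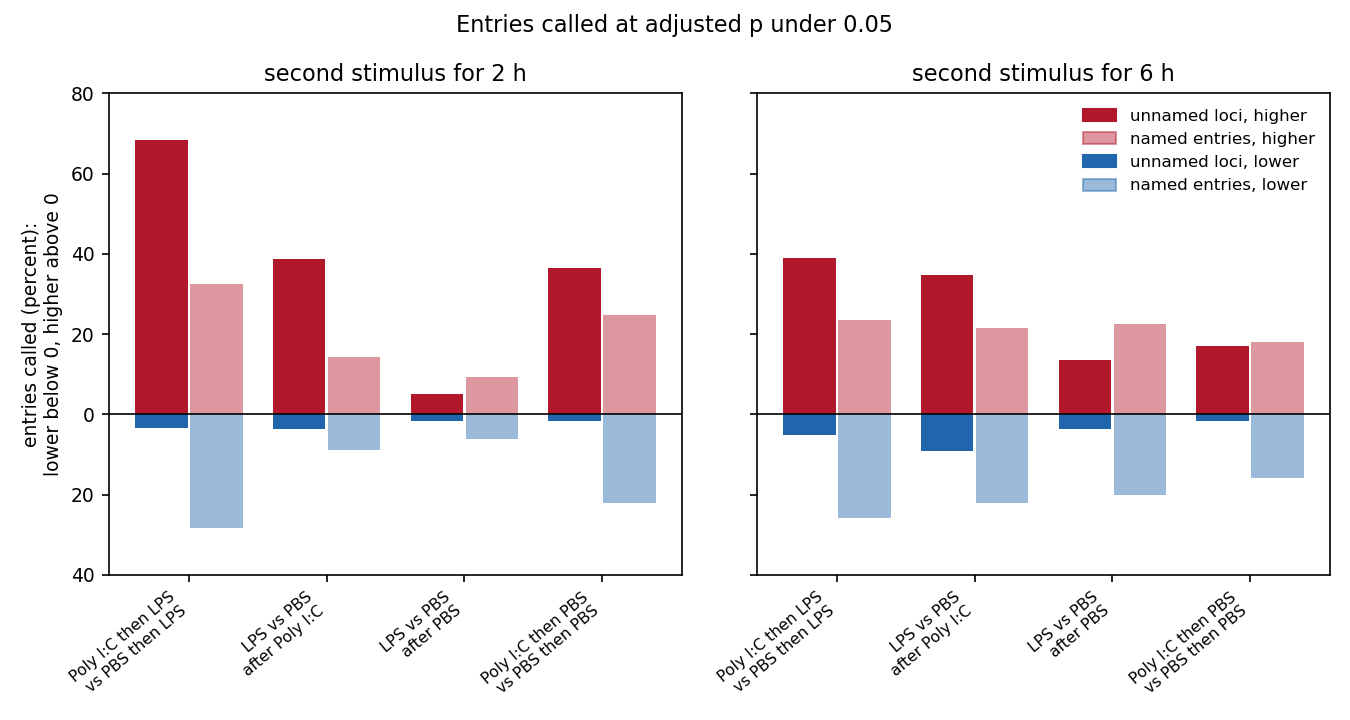
Percent of the 963 unnamed loci (full colour) and of the 11977 named entries (pale) called higher (red, upward) or lower (blue, downward) at an adjusted p under 0.05, in 4 comparisons at 2 h and at 6 h. At 2 h, 68.4% of loci were higher after Poly I:C then LPS against PBS then LPS and 3.32% lower, whereas 32.6% of named entries were higher and 28.4% lower.

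Among the loci with the largest increases, 2 lie near each other on chromosome 13. The 10042 bp locus chr13:119268726-119278767, over the GENCODE noncoding genes Gm47336 and Gm44488, had 71.8 and 64.3 FPKM with Poly I:C then LPS, 54.3 and 66.2 FPKM with Poly I:C then PBS, 0.0426 and 0 FPKM with PBS then LPS and 0 FPKM with PBS then PBS at 2 h. It was high in all 4 libraries that began with Poly I:C, whether or not LPS followed, and at or near 0 in the other 3. It was higher after Poly I:C then LPS than after PBS then LPS (log2 change 6.08, SE 0.15, limma adjusted p = 4.4e-09). The 165 bp locus chr13:119294893-119295057, with no gene in either annotation, had 51.7 and 93.1 FPKM with Poly I:C then LPS, 29.3 and 68.2 FPKM with Poly I:C then PBS and 0 in the 3 libraries that began with PBS (limma adjusted p = 1.1e-05 for Poly I:C then LPS against PBS then LPS).

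An unannotated 136 bp locus, chr3:121538629-121538764, had 99.7 and 121 FPKM with Poly I:C then LPS, 17.1 and 18.4 FPKM with Poly I:C then PBS, and was listed at 0 in all libraries that began with PBS (limma adjusted p = 4.4e-09). An 88 bp locus within the RefSeq span of Stard13 (intronic in GENCODE, in Gm42906), chr5:151314947-151315034, was far less even. It had 1571 and 204 FPKM with both stimuli, 142 and 446 FPKM after Poly I:C then PBS and 0 in every library that began with PBS (limma adjusted p = 0.001). Its replicates lie several-fold apart in both groups, and none overlaps 0.

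Among the 32 loci that were lower, the largest decreases were at weaker loci. The 8044 bp locus chr5:23700880-23708923, over the noncoding gene AI506816, had 0.620 and 0.476 FPKM with Poly I:C then LPS, 0.573 and 0.530 FPKM with Poly I:C then PBS, 5.30 and 7.03 FPKM with PBS then LPS and 5.21 FPKM with PBS then PBS at 2 h. The 4 libraries that began with Poly I:C lay below the 3 that began with PBS with no overlap (log2 change -2.20, SE 0.15, limma adjusted p = 1.3e-06). An unannotated 593 bp locus 2.26 kb from Fcrls, a scavenger receptor-like gene of resident macrophages, was listed at 0 in all 4 libraries that began with Poly I:C and stood at 4.91 and 4.26 FPKM after PBS then LPS, against 4.44 FPKM after PBS then PBS (limma adjusted p = 2.9e-06). Fcrls itself had 63.6 and 63.9 FPKM after Poly I:C then LPS, against 308 and 269 FPKM after PBS then LPS (log2 change -2.16, SE 0.11, limma adjusted p = 1.5e-07). The rule also named chr7:90124284-90129968, an entry at 2310010J17Rik with 1.84 and 0 FPKM after Poly I:C then LPS, against 3.55 and 13.3 FPKM after PBS then LPS, and chr16:91366894-91367137, 5.52 kb from Ifnar2 and Il10rb, with 0 and 1.25 FPKM against 7.36 and 3.91 FPKM. The call of the first is lost without replicate 2 of either group (limma adjusted p = 0.2005 for the group with both stimuli and 0.202 for the other), and that of the second without Poly I:C then LPS replicate 1 (0.083) or PBS then LPS replicate 1 (0.069). With a pseudocount of 0.1 both calls are lost (limma adjusted p = 0.085 and 0.054), and without a filter on low values the first is (0.086).

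**Figure D4:**
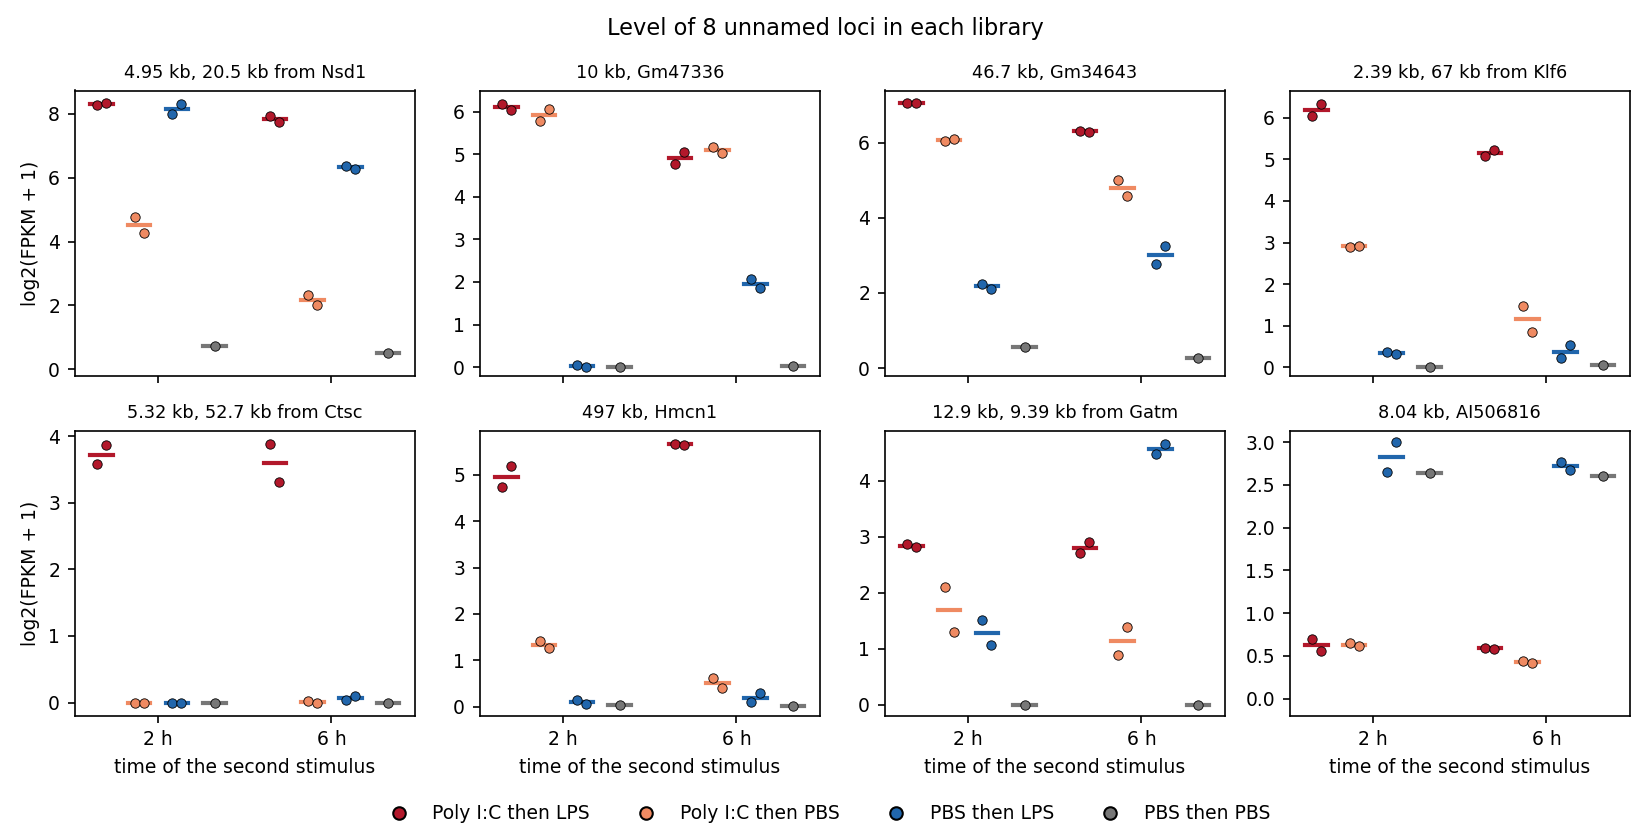
Level of 8 unnamed loci in each library on the log2(FPKM + 1) scale (vertical axis), at 2 h and 6 h; points are libraries, horizontal lines group means, and each panel names the locus by its length and its overlapping or nearest gene. The locus near Nsd1 is high after LPS with either first stimulus, the Gm47336 locus after Poly I:C with either second one, and the locus near Ctsc exceeds 1 FPKM only after both.

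What LPS added in cells that had received Poly I:C is shown by LPS against PBS after Poly I:C. At 2 h, 372 loci were higher with LPS and 35 lower, with 16% of all entries higher and 8.42% lower. The median change was 0.51 over the loci and 0.06 over all entries. Higher were 142 of 327 long, 154 of 367 middle and 76 of 269 short loci. Among loci that pass through other libraries alone, 181 of 578 (31.3%) were higher, against 13.8% of such named entries. Most of those other libraries had LPS too, so a locus could still pass by being high with LPS.

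At the top stood an unannotated 156 bp locus, chr6:49500341-49500496, with 10.9 and 21.2 FPKM after Poly I:C then LPS, against 0 after Poly I:C then PBS (limma adjusted p = 0.0014). The 244452 bp locus chr5:3286571-3531022 overlies Cdk6, a cell cycle kinase gene, and shares its position with other entries. It had 18.4 and 21.3 FPKM after Poly I:C then LPS, against 0.390 and 0.373 FPKM after Poly I:C then PBS (log2 change 3.91, SE 0.22, limma adjusted p = 3.1e-06). The entry named Cdk6 had 23.6 and 23.8 FPKM against 8.59 and 9.57 FPKM (log2 change 1.29, SE 0.19, limma adjusted p = 8.7e-04). A 13491 bp locus on chromosome 18, over the noncoding gene AC124231.3, had 14.01 and 15.5 FPKM with Poly I:C then LPS and 0 and 0.143 FPKM with Poly I:C then PBS (log2 change 3.88, SE 0.16, limma adjusted p = 1.1e-06). Its levels were 1.67 and 1.53 FPKM after PBS then LPS, against 0.0951 FPKM after PBS then PBS.

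Of the decreases, chr4:132607439-132724765, an entry over Eya3, had 1.54 and 0.754 FPKM after Poly I:C then LPS, against 4.48 and 7.49 FPKM after Poly I:C then PBS (log2 change -1.69, SE 0.30, limma adjusted p = 0.0025). The 4394 bp locus chr13:12609898-12614291, touching an exon of Ero1lb in GENCODE and 93 bp from the entry Gpr137b-ps, had 4.12 and 3.86 FPKM against 10.6 and 10.2 FPKM (log2 change -1.19, SE 0.21, limma adjusted p = 0.0024). It was also lower with LPS after PBS, at 3.69 and 6.09 FPKM against 10.1 FPKM (log2 change -0.94, SE 0.26, limma adjusted p = 0.036). That call is lost without PBS then LPS replicate 1 (limma adjusted p = 0.11) and with the PBS then PBS libraries of both times as 1 control (0.19). A 634 bp locus at A730063M14Rik, 206 bp from Cdk4, was listed at 0 in both Poly I:C then LPS libraries and had 6.83 and 14.1 FPKM after Poly I:C then PBS (limma adjusted p = 0.032), and lost its call without any one of these 4 libraries.

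LPS against PBS in cells that had received PBS first is the response without Poly I:C. At 2 h, 48 loci were higher with LPS and 15 lower, with 8.89% of all entries higher and 5.83% lower. The median was 0.01 over the loci and 0.04 over all entries. The number called higher was 60 without PBS then LPS replicate 2 and 31 without replicate 1. A single locus stood apart by level. The unannotated 4945 bp locus chr13:55184362-55189306, 20.5 kb from Nsd1, a histone methyltransferase gene, had 255 and 317 FPKM after PBS then LPS, against 0.660 FPKM after PBS then PBS (log2 change 7.43, SE 0.22, limma adjusted p = 1.7e-07).

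The same locus had 306 and 323 FPKM after Poly I:C then LPS, against 26.01 and 18.1 FPKM after Poly I:C then PBS. Its levels after LPS thus overlapped between both first stimuli (log2 change 0.15, SE 0.18, limma adjusted p = 0.51). Poly I:C alone raised it to a lower level (log2 change 3.77, SE 0.22, limma adjusted p = 7.9e-07 for Poly I:C then PBS against PBS then PBS). Nsd1 itself was lower, at 1.45 and 1.99 FPKM after PBS then LPS, against 3.62 FPKM after PBS then PBS (log2 change -0.77, SE 0.17, limma adjusted p = 0.014). Also named were the unannotated short loci chr10:60245995-60246140, with 47.9 and 22.4 FPKM after PBS then LPS, and chr13:24776703-24776858, with 38.3 and 11.1 FPKM, both listed at 0 after PBS then PBS at 2 h (limma adjusted p = 0.031 and 0.0075). The first lost its call without PBS then LPS replicate 1 (limma adjusted p = 0.11), and the second with the PBS then PBS libraries of both times as 1 control (0.068).

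Among the loci lower with LPS after PBS, chr15:39962488-40128980, a 166493 bp span over the noncoding gene AU022793, had 17.7 and 21.4 FPKM with Poly I:C then LPS, 27.9 and 31.5 FPKM with Poly I:C then PBS, 3.43 and 2.98 FPKM with PBS then LPS and 12.98 FPKM with PBS then PBS at 2 h. It was lower with LPS after PBS (log2 change -1.73, SE 0.18, limma adjusted p = 1.8e-04) and higher after Poly I:C then LPS than after PBS then LPS (log2 change 2.29, SE 0.15, limma adjusted p = 9.7e-07). The 7239 bp locus chr2:144337420-144344658, at RefSeq Gm34181, had 3.95 and 3.90 FPKM after PBS then LPS, against 7.43 FPKM after PBS then PBS (log2 change -0.77, SE 0.20, limma adjusted p = 0.031). This call is lost with the PBS then PBS libraries of both times as 1 control (limma adjusted p = 0.29) and without PBS then LPS replicate 1 (0.064).

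Poly I:C alone, 24 h of Poly I:C and then 2 h of PBS against PBS throughout, left 352 loci higher and 17 lower, with 25.7% of all entries higher and 20.7% lower. The median change was 0.52 over the loci and 0.09 over all entries. Long loci were called higher in 162 of 327 cases, middle ones in 129 of 367 and short ones in 61 of 269. For 160 of the 352, the PBS then PBS library was listed at 0. The largest increases among levels of at least 5 FPKM were the 3 loci already given, at Gm47336, beside it, and within Stard13, and all 3 were listed at 0 in the PBS then PBS library (limma adjusted p = 2.1e-08, 1.5e-04 and 0.011). The last lost its call without Poly I:C then PBS replicate 2 (limma adjusted p = 0.0503).

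The decreases named with Poly I:C alone were AI506816, already given (log2 change -2.0, SE 0.19, limma adjusted p = 1.9e-05), and 2 others. The entry chr7:101871526-101911901, over Anapc15, Tomt and Lamtor1, had 1.84 and 1.60 FPKM after Poly I:C then PBS and 7.83 FPKM after PBS then PBS (log2 change -1.70, SE 0.44, limma adjusted p = 0.01). The Anapc15 call is lost with the PBS then PBS libraries of both times as 1 control (limma adjusted p = 0.075). A 237 bp locus near Gm14325, chr2:177828962-177829198, had 1.39 and 0 FPKM against 6.80 FPKM and lost its call without Poly I:C then PBS replicate 2 (limma adjusted p = 0.12).

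Whether the LPS response itself differed with the first stimulus was tested as the interaction, the log2 change with LPS after Poly I:C minus that after PBS. At 2 h it was positive in 166 loci and negative in 7, with 3.88% of all entries positive and 1.84% negative. The median was 0.42 over the loci and 0.02 over all entries. The count depends on the scale for low levels: with a pseudocount of 0.1, 42 loci were positive. With the 2 h libraries fitted alone, 72 were positive and 2 negative. Positive interactions were found in 75 of 367 middle, 65 of 327 long and 26 of 269 short loci. Of the 963 loci, 152 reached 1 FPKM only in the Poly I:C then LPS pair of 2 h. They passed through the group whose high level makes the interaction positive, and no count without them was made.

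The unannotated 5319 bp locus chr7:88219505-88224823, 52.7 kb from Ctsc, which encodes the protease cathepsin C, had 10.96 and 13.6 FPKM with both stimuli and was listed at 0 in the other 5 libraries of 2 h (limma adjusted p = 1.5e-04 for the interaction). It was thus seen at 2 h only with both stimuli, and at 6 h it had 13.8 and 8.90 FPKM with both and at most 0.0758 FPKM otherwise. Ctsc itself had 852 and 905 FPKM with Poly I:C then LPS, 363 and 359 FPKM with Poly I:C then PBS, 225 and 261 FPKM with PBS then LPS and 147 FPKM with PBS then PBS, so that it was detected in every group. The 496576 bp span chr1:150496860-150993435, the longest of all the loci and 1 of 9 entries at Hmcn1, had 25.5 and 35.4 FPKM with Poly I:C then LPS, 1.68 and 1.39 FPKM with Poly I:C then PBS, 0.110 and 0.0447 FPKM with PBS then LPS and 0.0195 FPKM with PBS then PBS at 2 h (interaction 3.54, SE 0.28, limma adjusted p = 1.2e-04). It lay highest in the libraries with both stimuli, with no overlap with any other group.

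Among the 7 negative interactions at 2 h was the locus near Nsd1 (-3.63, SE 0.28, limma adjusted p = 1.1e-04), whose level after LPS was alike with either first stimulus while its level without LPS was higher after Poly I:C. The other, chr1:173997286-174006711, lies over the pseudogene Gm18445, 5.29 kb from the interferon-inducible gene Ifi205. It had 5.34 and 5.67 FPKM with Poly I:C then LPS, 3.37 and 3.21 FPKM with Poly I:C then PBS, 10.4 and 5.04 FPKM with PBS then LPS and 0 FPKM with PBS then PBS at 2 h (interaction -2.45, SE 0.46, limma adjusted p = 0.014). With the 2 h libraries alone the adjusted p was 0.068. Ifi205 had 1008 and 1133 FPKM with Poly I:C then LPS, 448 and 391 FPKM with Poly I:C then PBS, 116 and 99.3 FPKM with PBS then LPS and 3.05 FPKM with PBS then PBS (interaction -3.39, SE 0.23, limma adjusted p = 6.4e-05).

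At 6 h, Poly I:C then LPS against PBS then LPS gave 376 loci higher and 50 lower, with 24.7% of all entries higher and 24.2% lower. The median change was 0.44 over the loci and 0.03 over all entries. Higher were 149 of 327 long, 158 of 367 middle and 69 of 269 short loci. Of the 659 loci higher at 2 h, 347 were higher and 12 lower at 6 h, and 300 were not called. A further 28 were higher at 6 h alone.

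The Hmcn1 span had 49.95 and 49.2 FPKM after Poly I:C then LPS, against 0.0630 and 0.223 FPKM after PBS then LPS (log2 change 5.47, SE 0.18, limma adjusted p = 1.6e-07). The unannotated 2393 bp locus chr13:5791983-5794375, 67.0 kb from Klf6, a zinc finger factor gene, had 32.8 and 36.6 FPKM after Poly I:C then LPS, against 0.169 and 0.445 FPKM after PBS then LPS (log2 change 4.78, SE 0.21, limma adjusted p = 3.5e-07). At 2 h it had 64.8 and 79.96 FPKM with Poly I:C then LPS, 6.49 and 6.62 FPKM with Poly I:C then PBS, 0.294 and 0.241 FPKM with PBS then LPS and 0 FPKM with PBS then PBS, so that the libraries with both stimuli were the highest at 2 h as well. Klf6 itself had 213 and 201 FPKM after Poly I:C then LPS, against 180.5 and 193 FPKM after PBS then LPS at 6 h (log2 change 0.15, SE 0.19, limma adjusted p = 0.56). The 136 bp locus on chromosome 3 kept 27.5 and 39.3 FPKM with both stimuli and was listed at 0 in the other 5 libraries of 6 h (limma adjusted p = 1.8e-07).

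The clearest decrease at 6 h was an entry over Il4ra, the receptor gene for interleukin 4, chr7:125552229-125583140. It had 0 and 0.146 FPKM after Poly I:C then LPS, against 4.57 and 6.101 FPKM after PBS then LPS (log2 change -2.55, SE 0.27, limma adjusted p = 4.7e-05). The named entry Il4ra was lower too, at 81.6 and 69.95 FPKM against 467 and 485 FPKM (log2 change -2.64, SE 0.12, limma adjusted p = 3.8e-07). The other 2 named decreases were short loci whose PBS then LPS libraries lay far apart. The 142 bp locus chr17:7430168-7430309, at Gm6553, was listed at 0 in both Poly I:C then LPS libraries and had 34.9 and 3.93 FPKM after PBS then LPS. The 149 bp locus chr10:79837794-79837942, 7.30 kb from Misp, had 3.58 and 0 FPKM after Poly I:C then LPS, against 4.61 and 19.1 FPKM after PBS then LPS. The first call (limma adjusted p = 0.02) is lost without PBS then LPS replicate 1 or either library with both stimuli (0.17, 0.081 and 0.077). The second call (limma adjusted p = 0.0499) is lost without replicate 2 of either group (0.34 with both stimuli and 0.31 with PBS first).

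LPS against PBS after Poly I:C at 6 h gave 335 loci higher and 87 lower, with 22.6% of all entries higher and 21% lower. The median change was 0.35 over the loci and -0.0019 over all entries. The Nsd1 locus had 242 and 213 FPKM after Poly I:C then LPS, against 4.004 and 3.05 FPKM after Poly I:C then PBS (log2 change 5.66, SE 0.18, limma adjusted p = 4.2e-08). The Hmcn1 span had 49.95 and 49.2 FPKM against 0.528 and 0.328 FPKM (log2 change 5.15, SE 0.18, limma adjusted p = 6.8e-08). Both lay far above every library that had Poly I:C without LPS. Of the decreases, chr7:16048369-16049065, 420 bp from Gltscr1, had 0 and 0.287 FPKM after Poly I:C then LPS, against 6.28 and 4.56 FPKM after Poly I:C then PBS (log2 change -2.49, SE 0.41, limma adjusted p = 7.5e-04). At the short locus chr11:72606829-72607019, 216 bp from Ube2g1, the pair with both stimuli was listed at 0, against 2.98 and 15.7 FPKM after Poly I:C then PBS (limma adjusted p = 0.0038). The third, chr13:24776703-24776858, at 2.95 and 0 FPKM against 13.96 and 8.72 FPKM, lost its call without either Poly I:C then LPS replicate 2 or Poly I:C then PBS replicate 1 (limma adjusted p = 0.12 and 0.081).

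LPS against PBS after PBS at 6 h gave 131 loci higher and 36 lower, with 22% of all entries higher and 18.9% lower, and a median of 0.09 over the loci and 0.03 over all entries. The Nsd1 locus had the largest log2 increase of the 963 loci, at 81.9 and 76.3 FPKM after PBS then LPS, against 0.428 FPKM after PBS then PBS (log2 change 5.81, SE 0.22, limma adjusted p = 5.0e-08). A locus with another order of groups was the 12921 bp span chr2:122572156-122585076, at RefSeq Gm34325, 9.39 kb from Gatm, a gene of creatine synthesis. At 6 h it had 5.49 and 6.50 FPKM with Poly I:C then LPS, 0.838 and 1.61 FPKM with Poly I:C then PBS, 21.3 and 24.2 FPKM with PBS then LPS and 0 FPKM with PBS then PBS. It was listed at 0 without either stimulus and was higher with LPS after PBS (limma adjusted p = 3.9e-06), and it was lower after Poly I:C then LPS than after PBS then LPS (log2 change -1.77, SE 0.28, limma adjusted p = 5.4e-04). Gatm was lower too, at 8.99 and 13.2 FPKM after Poly I:C then LPS, against 66.4 and 66.4 FPKM after PBS then LPS (log2 change -2.50, SE 0.17, limma adjusted p = 3.3e-06).

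The entry over Ms4a4a, whose promoter is given above and which is a gene of the MS4A family of membrane proteins, was also highest after PBS then LPS at 6 h; it was chosen for description after its values were seen. This 18026 bp locus, chr19:11375298-11393323, had 36.5 and 35.1 FPKM with Poly I:C then LPS, 15.03 and 12.1 FPKM with Poly I:C then PBS, 117 and 135 FPKM with PBS then LPS and 18.4 FPKM with PBS then PBS at 6 h. It was lower after Poly I:C then LPS than after PBS then LPS at 6 h (log2 change -1.78, SE 0.14, limma adjusted p = 5.9e-06), while at 2 h the groups overlapped (log2 change -0.02, SE 0.14, limma adjusted p = 0.92). Gm9895, a noncoding gene, is the third of the promoters shown. Its locus, chr19:29067260-29081895, had 8.22 and 6.81 FPKM with Poly I:C then LPS, 0.945 and 0.697 FPKM with Poly I:C then PBS, 0.340 and 0.586 FPKM with PBS then LPS and 0 FPKM with PBS then PBS at 2 h (log2 change 2.54, SE 0.24, limma adjusted p = 1.3e-05 for Poly I:C then LPS against PBS then LPS).

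The 147 bp locus chr17:83297965-83298111, with no annotation, had 19.6 and 10.1 FPKM after PBS then LPS and 0 after PBS then PBS at 6 h (limma adjusted p = 5.6e-04). One of the 3 decreases named with LPS after PBS was AI839979, chr5:31557105-31571569, with 0.389 and 0.859 FPKM after PBS then LPS, against 5.28 FPKM after PBS then PBS (log2 change -1.97, SE 0.29, limma adjusted p = 4.6e-04). Another was chr11:75530224-75531686, over Gm45606 and 8 bp from the entry Slc43a2, with 1.05 and 0.819 FPKM against 5.04 FPKM (log2 change -1.64, SE 0.18, limma adjusted p = 5.5e-05). Slc43a2, an amino acid transporter gene, had 18.4 and 13.7 FPKM against 74.8 FPKM (log2 change -2.17, SE 0.26, limma adjusted p = 1.2e-04). The largest on the log2 scale was at a 134 bp locus over the RefSeq tRNA gene n-TDgtc13, chr13:21935430-21935563, which was listed at 0 in both PBS then LPS libraries of 6 h and had 21.6 FPKM after PBS then PBS (limma adjusted p = 0.03), a call lost without either PBS then LPS library (limma adjusted p = 0.083 and 0.088) and with no filter on low values (0.096).

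Poly I:C alone, now followed by 6 h of PBS, left 163 loci higher and 15 lower, with 18% of all entries higher and 14.7% lower, so that the share of loci called higher (16.9%) was near that of all entries. The median was 0.18 over the loci and 0.08 over all entries. The 46664 bp span chr14:102987410-103034073, over the noncoding genes 4933432I03Rik and Gm34643 and 4.77 kb from the named entry Gm26778, had 78.1 and 77.3 FPKM with Poly I:C then LPS, 31.03 and 22.8 FPKM with Poly I:C then PBS, 5.87 and 8.58 FPKM with PBS then LPS and 0.215 FPKM with PBS then PBS at 6 h. Every library with Poly I:C lay above every library without it (log2 change 4.51, SE 0.21, limma adjusted p = 4.2e-07), and LPS added to it after PBS as well (log2 change 2.74, SE 0.21, limma adjusted p = 5.8e-06). Gm26778 had 19.7 and 18.2 FPKM after Poly I:C then PBS and 22.1 FPKM after PBS then PBS (log2 change -0.22, SE 0.30, limma adjusted p = 0.63). Of the decreases, AI506816 (log2 change -2.17, SE 0.19, limma adjusted p = 1.8e-05) and the locus near Fcrls (log2 change -2.41, SE 0.23, limma adjusted p = 4.1e-05) were lower at 6 h as at 2 h.

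The interaction at 6 h was positive in 130 loci and negative in 72, with 12.6% of all entries positive and 15.8% negative. The median was 0.20 over the loci and -0.05 over all entries. The 136 bp locus on chromosome 3 was positive (limma adjusted p = 2.7e-06), as its level with both stimuli was the only one above 0. The other loci named by the rule here, the tRNA locus, A730063M14Rik and an unannotated 176 bp locus on chromosome X, chrX:36297929-36298104, are short loci with wide replicate spread (limma adjusted p = 0.03, 0.04 and 0.037), and each lost its call without any one of several libraries (limma adjusted p of 0.061 to 0.13 there).

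The highest listed levels of all belonged to loci of about 100 bp in length, close to the read length of 76 bases. FPKM is scaled by length, so levels at such short spans may not measure abundance, which was not tested. This applies as well to the other loci of this size given above. The 103 bp locus chr1:122357146-122357248, 789 kb from the nearest tested gene, had a median of 36527 FPKM over the 14 libraries. It had 59753 and 99152 FPKM with Poly I:C then LPS, 34551 and 28440.4 FPKM with Poly I:C then PBS, 36346 and 55673 FPKM with PBS then LPS and 25544 FPKM with PBS then PBS at 2 h. The next were chr18:85698223-85698291 (69 bp) and chr1:136364886-136364974 (89 bp), with medians of 8684 and 8270 FPKM. At the 103 bp locus, no difference between Poly I:C then LPS and PBS then LPS was called at 2 h, where replicates lay as far apart as the nearest libraries of both groups or farther (log2 change 0.77, SE 0.41, limma adjusted p = 0.13). The 963 loci held 6.30% to 17.7% of all FPKM in a library, nearly all of it in loci under 1 kb. The 8 most abundant short loci alone held 5.63% to 16.7%, so this share rests on few loci.

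Replicates of short loci were also the least alike. Between the 2 libraries of a group, 11.2% to 21.9% of loci under 1 kb differed by more than 1 on the log2(FPKM + 1) scale, against 0.817% to 4.63% of loci of 1 to 10 kb and 0.917% to 5.20% of those over 10 kb. Named entries under 1 kb did so in 9.81% to 15.9%.

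Of the loci of 1 to 10 kb, the Nsd1 locus had the highest median level over the libraries. Another of the 3 highest, chr11:86811046-86814762, 3717 bp and 2.48 kb from Dhx40, had 131 and 140.3 FPKM with Poly I:C then LPS, 19.3 and 22.5 FPKM with Poly I:C then PBS, 8.91 and 10.05 FPKM with PBS then LPS and 2.72 FPKM with PBS then PBS at 2 h. It was highest after both stimuli, with no overlap with other groups (log2 change 3.71, SE 0.15, limma adjusted p = 3.8e-08 for Poly I:C then LPS against PBS then LPS). The locus chr11:83041043-83047470, 378 bp from an entry naming Slfn8 of the Schlafen family, had 40.8 and 38.5 FPKM with Poly I:C then LPS, 20.04 and 25.1 FPKM with Poly I:C then PBS, 2.67 and 3.07 FPKM with PBS then LPS and 1.41 FPKM with PBS then PBS at 2 h. It was higher after Poly I:C then LPS than after PBS then LPS (log2 change 3.39, SE 0.20, limma adjusted p = 3.8e-07). The named entry had 211 and 214 FPKM after Poly I:C then LPS, against 41.8 and 43.8 FPKM after PBS then LPS. Schlafen genes have near-identical copies, so the split of reads there is uncertain. Of the long loci, chr6:3330447-3346046, over the noncoding gene Gm20559 and 26.1 kb from Samd9l, an interferon-induced gene, had 59.8 and 67.1 FPKM with Poly I:C then LPS, 45.9 and 48.4 FPKM with Poly I:C then PBS, 7.95 and 7.35 FPKM with PBS then LPS and 3.52 FPKM with PBS then PBS at 2 h. It was higher with both stimuli than with LPS alone (log2 change 2.90, SE 0.17, limma adjusted p = 3.8e-07). At 6 h its Poly I:C then LPS and PBS then LPS libraries overlapped, at 33.7 and 29.03 FPKM and 26.1 and 36.7 FPKM (log2 change 0.02, SE 0.17, limma adjusted p = 0.95).

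The loci over microRNA hairpins were weak. The 4 entries at chr16:84702243-84735742, over Mir155hg and its hairpin, had 2.52 to 3.84 FPKM after Poly I:C then LPS, against 0 to 1.58 FPKM after PBS then LPS at 2 h, and 4 of 4 were higher (limma adjusted p = 4.4e-06 to 0.015). Of all 963 loci, 68.4% were higher in this comparison. The log2 change was 1.08 to 1.28 in the 3 entries at Mir155hg that had a level after PBS then LPS. A named entry for Mir155 at this position had 68.1 and 73.1 FPKM after Poly I:C then LPS, against 27.9 and 33.9 FPKM after PBS then LPS (log2 change 1.17, limma adjusted p = 3.4e-04). The locus chrX:19145250-19168384, over the hairpins of miR-221 and miR-222, had 1.44 and 1.12 FPKM after Poly I:C then LPS, against 0.0574 and 0.351 FPKM after PBS then LPS (log2 change 0.93, SE 0.21, limma adjusted p = 0.0037). The levels of these unnamed loci are low, and neither they nor the level of the named entry give the mature microRNA.

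For comparison, of 24 annotated noncoding RNAs in a list, 13 could be tested, and 6 of these were higher and 1 lower after Poly I:C then LPS against PBS then LPS at 2 h, with a median of 0.62. Of all entries 35.2% were higher and 26.6% lower in this comparison, so 6 of 13 is near the background. Malat1, an abundant nuclear RNA, had 69.7 and 60.3 FPKM after Poly I:C then LPS, against 20.4 and 28.2 FPKM after PBS then LPS (log2 change 1.39, limma adjusted p = 1.4e-04). Dleu2, host of miR-15a and miR-16, had 24.4 and 23.7 FPKM against 3.86 and 3.87 FPKM (log2 change 2.36, limma adjusted p = 2.6e-06). Snhg1, a snoRNA host, had 14.6 and 12.9 FPKM against 31.7 and 18.9 FPKM (log2 change -0.79, limma adjusted p = 0.039).

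Within the groups along a chromosome, calls can be set side by side. Of all 963 loci, 68.4% were higher after Poly I:C then LPS against PBS then LPS at 2 h. A group with every locus higher is thus not set apart by that alone. In the 8 entries at A230028O05Rik on chromosome 16, all 8 were higher after Poly I:C then LPS against PBS then LPS at 2 h, with log2 changes of 1.09 to 3.14 in the 7 that had a level after PBS then LPS. The most abundant of them had 7.94 and 8.28 FPKM with Poly I:C then LPS, 5.33 and 5.21 FPKM with Poly I:C then PBS, 0.0444 and 0.0271 FPKM with PBS then LPS and 0.0552 FPKM with PBS then PBS. The named gene had 17.9 and 17.6 FPKM after Poly I:C then LPS, against 2.78 and 3.22 FPKM after PBS then LPS (log2 change 2.23, SE 0.13, limma adjusted p = 3.8e-07). Stacked entries share a position and may share reads, so they are not separate observations.

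Groups with several positions were chosen for description after their values were seen. Other groups went otherwise at 2 h. Of 3 loci at chr12:17881884-17933914, 0 were higher and 2 lower after Poly I:C then LPS against PBS then LPS. Of the 3 each at chr13:74445108-74617592 and chr11:117933600-118129219, 0 were higher and 0 lower. Just 14.3 to 29.3 kb from Cd2ap on chromosome 17 lie 5 unannotated loci within 16.7 kb, and 5 of 5 were higher after Poly I:C then LPS than after PBS then LPS at 2 h. The strongest, chr17:42893230-42895153, had 93.5 and 102 FPKM with Poly I:C then LPS, 26.9 and 31.6 FPKM with Poly I:C then PBS, 0.926 and 0.684 FPKM with PBS then LPS and 0.255 FPKM with PBS then PBS at 2 h (log2 change 5.77, SE 0.19, limma adjusted p = 1.3e-08). Its neighbours chr17:42890974-42891506 and chr17:42891919-42893071 had 35.6 and 35.3 FPKM and 35.5 and 39.5 FPKM with both stimuli. All 3 were at most 0.926 FPKM after PBS then LPS at 2 h.

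Around Ccl5, a chemokine gene, 5 loci lay at 4 positions within 26.3 kb, so not all are separate. All 5 were higher after Poly I:C then LPS than after PBS then LPS at 2 h and at 6 h. Of all 963 loci, 68.4% were higher at 2 h and 39.0% at 6 h. The locus that overlies Ccl5, chr11:83525771-83536450, had 37.2 and 43.9 FPKM after Poly I:C then LPS, against 0.499 and 0.153 FPKM after PBS then LPS at 2 h (log2 change 4.98, SE 0.22, limma adjusted p = 8.2e-08). At 6 h it had 36.3 and 33.5 FPKM against 2.86 and 4.91 FPKM (log2 change 2.91, SE 0.22, limma adjusted p = 6.1e-06). The loci of this group beyond it, up to 15.1 kb away, reached 1.36 to 10.8 FPKM after Poly I:C then LPS at 2 h. Between Klf3 and Tlr1 on chromosome 5, 5 loci at 4 positions over 100.0 kb were higher at both times. Among them was the 28105 bp span chr5:64837579-64865683 with 7.95 and 6.84 FPKM after Poly I:C then LPS, against 3.99 and 4.54 FPKM after PBS then LPS at 6 h (log2 change 0.67, SE 0.15, limma adjusted p = 0.0044).

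Loci called higher often lay near a named entry that was higher too. Of the 526 loci higher after Poly I:C then LPS against PBS then LPS at 2 h whose nearest tested named entry lay within 50 kb, 367 (69.8%) had that entry higher too, and 53 had it lower. Of the 251 loci not called higher, 37.1% had a higher neighbour. Among named entries, the share was 45.1% for those higher and 26.9% for the rest. Without the loci that overlap a named entry, 266 of 399 higher loci (66.7%) had a higher neighbour, against 39.4% of those not called higher. At 6 h, 137 of 288 higher loci (47.6%) had a higher neighbour, against 26.8% of loci not called higher, and 33.8% of higher named entries did. For Poly I:C alone it was 176 of 287 higher loci (61.3%, against 41.8%) at 2 h and 60 of 130 (46.2%, against 30.6%) at 6 h. In Poly I:C then LPS against PBS then LPS, the lower direction was looked at as well. Loci called lower shared the direction in 10 of 22 at 2 h (45.5%, against 13.2% of loci not called lower) and in 18 of 41 at 6 h (43.9%, against 18.8%).

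With LPS the shares varied. After Poly I:C at 2 h, 177 of 294 higher loci (60.2%) had a higher neighbour, against 23.2% of loci not called higher, and after PBS at 2 h 19 of 44 (43.2%) did, against 25.5%. At 6 h it was 190 of 265 (71.7%, against 33.2%) after Poly I:C and 81 of 112 (72.3%, against 38.2%) after PBS, where the shares among higher named entries were 38.7% and 38.9%. Of loci called lower with LPS after Poly I:C at 2 h, 4 of 30 had a lower neighbour (13.3%, against 6.43% of loci not called lower). After PBS at 2 h it was 1 of 11 (9.09%, against 4.18%). At 6 h it was 33 of 72 (45.8%, against 11.5%) after Poly I:C and 11 of 27 (40.7%, against 11.6%) after PBS. Among lower named entries the shares after Poly I:C and after PBS were 14.8% and 11.8% at 2 h. At 6 h they were 34.7% and 29.0%. The locus near Nsd1 was higher with LPS after PBS at 2 h while Nsd1 was lower. These shares are descriptions: neighbouring entries are not independent, and whether a locus and its neighbour are 1 transcript was not tested.

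**Figure D5:**
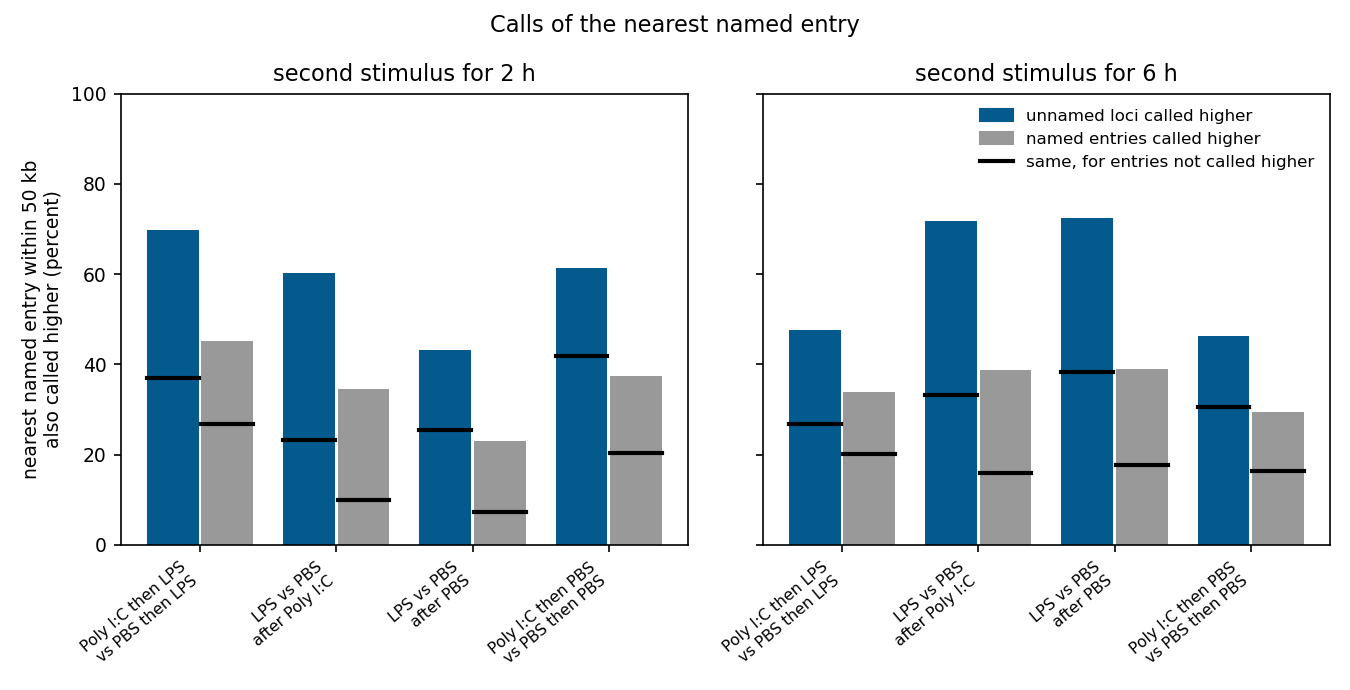
Percent of entries called higher whose nearest named entry within 50 kb was also called higher (vertical axis), for unnamed loci (blue) and named entries (grey), in 4 comparisons at 2 h and 6 h; the black line gives the same percent for entries not called higher. In Poly I:C then LPS against PBS then LPS at 2 h the share is 69.8% for called loci and 37.1% for loci not called higher.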

How the data were processed

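Stranded polyA RNA-seq from macrophages, 14 libraries in all, was read as FPKM from the deposited table, which the authors made with TopHat2, Cufflinks and Cuffnorm, per the submitters' processing notes. Versions are not given in the sources used here. The notes name mm9, but 33745 of 33795 entries naming 1 gene overlap it in GENCODE M21 of GRCm38, so coordinates are given as GRCm38. FPKM holds no counts, so the number of reads in a library is unknown and intervals for counting error cannot be had. Relative depth was only estimated, through the level that 1 fragment is worth.

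Groups follow the labels. All 12940 entries with 1 FPKM or more in 2 or more libraries (963 unnamed, 11977 named) were fitted with limma 3.58.1 (R 4.3.3) with an intensity trend on log2(FPKM + 1), over all 8 groups with 6 residual degrees of freedom and no covariates. There were 10 comparisons, each 2-sided with Benjamini-Hochberg adjustment over the 12940 entries at 0.05. The lone PBS then PBS library of a time is assumed to vary like the others. The fit was tested on simulated data.

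Loci described singly are the 3 largest increases and 3 largest decreases per comparison among called loci with a mean of at least 5 FPKM in the higher group and no overlap between groups. To these come 2 each way per interaction, the 3 highest medians per length class, and the largest group along a chromosome. Members, lists and rules were chosen with earlier results of these data known. Same-numbered replicates did not deviate together in 15 pairs of groups (correlations of -0.18 to 0.064), so the numbers were not taken to pair libraries. Alternatives were another pseudocount, no filter, rescaling, no trend, each time alone, a replicate block, both controls as 1 group, other rules for members and leaving out each library. Python 3.11.15 with pandas 2.3.3, numpy 2.4.6 and matplotlib 3.10.9 made the summaries and figures. An entry's annotation rests on its span, as exons of unnamed entries were not used here. One marker result is not reported here.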

Additional observations from a re-analysis of the deposited data

Results flagged for a closer look

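At 8 loci the response to LPS differed between cells that had first received Poly I:C and cells that had first received PBS, by the interaction in limma on log2(FPKM + 1), and 4 of these calls did not hold in every setting run. At 2 h, the interaction was 3.72 at the locus near Ctsc (limma adjusted p = 1.5e-04), a size that depends on the pseudocount because every other library of 2 h was listed at 0. It was 3.54 at the Hmcn1 span (limma adjusted p = 1.2e-04), -3.63 at the locus near Nsd1 (limma adjusted p = 1.1e-04) and -2.45 at Gm18445 near Ifi205 (limma adjusted p = 0.014). At the Hmcn1 span, the log2 change with LPS was 3.62 after Poly I:C and 0.08 after PBS. At the locus near Nsd1, it was 3.8 after Poly I:C and 7.43 after PBS.

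At 6 h, the interaction was 6.29 at the tRNA locus n-TDgtc13 (limma adjusted p = 0.03), which had 11.9 and 11.5 FPKM with Poly I:C then LPS, 0 and 12.4 FPKM with Poly I:C then PBS, 0 and 0 FPKM with PBS then LPS and 21.6 FPKM with PBS then PBS. It was 5.08 at the 136 bp locus on chromosome 3 (limma adjusted p = 2.7e-06), which was at 0 except after both stimuli at that time. At A730063M14Rik it was -4.997 (limma adjusted p = 0.04), with 0 and 2.85 FPKM with Poly I:C then LPS, 2.87 and 30.9 FPKM with Poly I:C then PBS, 5.61 and 3.81 FPKM with PBS then LPS and 0 FPKM with PBS then PBS. At chrX:36297929-36298104 it was -3.55 (limma adjusted p = 0.037), with 7.51 and 1.30 FPKM with Poly I:C then LPS, 3.86 and 2.87 FPKM with Poly I:C then PBS, 11.6 and 10.3 FPKM with PBS then LPS and 0 FPKM with PBS then PBS. Replicates of the tRNA locus and of A730063M14Rik lie far apart after Poly I:C then PBS. With the 2 h libraries alone, Gm18445 was not called (limma adjusted p = 0.068). With no filter on low values, the tRNA locus, A730063M14Rik and the locus on chromosome X were not (limma adjusted p = 0.095, 0.12 and 0.11), nor were they without any one of several libraries (0.061 to 0.13). A730063M14Rik was also not called with the 6 h libraries alone (limma adjusted p = 0.076) or with both PBS then PBS libraries as 1 group (0.063).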

How the results depend on the processing

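No result changed sign in any setting run. Under settings that keep all libraries, 14 counts or shares moved by more than 1.5 times, and the cause was not tested. With a pseudocount of 0.1, LPS after Poly I:C at 2 h gave 23 loci lower, LPS after PBS at 2 h gave 77 higher, Poly I:C alone at 2 h gave 11 lower, and the interaction at 2 h was positive in 42. Without a filter on low values, Poly I:C alone at 2 h gave 11 lower, and Poly I:C then LPS against PBS then LPS at 6 h gave 33 lower. With the libraries of 2 h alone, LPS after PBS gave 7 lower, and the interaction was positive in 72 and negative in 2. With a replicate block, LPS after PBS at 2 h gave 8 lower and the interaction at 2 h was negative in 4; the block moved no other count by over 1.5 times. With both PBS then PBS libraries as 1 group, the interaction at 2 h was negative in 12. Among loci that pass through unused libraries, a choice made after seeing the data, 0.985% were lower with Poly I:C alone at 6 h. A rule of 5 FPKM kept 213 loci.

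Leaving out 1 library at a time, 2 h counts ran from 17 to 29 lower for Poly I:C then LPS against PBS then LPS, from 17 to 25 lower for LPS after Poly I:C, from 31 to 60 higher for LPS after PBS, and from 11 to 16 lower for Poly I:C alone. The interaction at 2 h ran from 98 to 171 positive and from 3 to 12 negative. The number higher after Poly I:C then LPS against PBS then LPS at 2 h, 659 with all libraries, ran from 608 to 630. Of 55 results for single loci, 18 lost their call in 1 or more settings, among them 13 without a filter on low values, 7 with a pseudocount of 0.1 and 6 with a replicate block. Groups hold 1 or 2 libraries, and since their read numbers are unknown, the smallest change that could be seen at weak loci was not determined.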
